A study of Homo sapiens with 30 samples.

Results

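The 8 genes described here, ACTB, ACTG1, MYH9, FLNA, AHNAK, PLEC, KRT8 and KRT18, encode structural proteins of the cytoskeleton and its linkers. They were chosen by symbol, from 26475 genes in the deposited run-on count table, as cytoskeleton genes of mesenchymal cells with high transcription. Their symbols were also matched to the genes named in the annotated ChIP peak lists of both repeats. All the cells were HT1080, a human fibrosarcoma line, at passages 10 to 15 with no added treatment. Run-on sequencing (GRO-seq), in which isolated nuclei extend engaged transcripts with a bromouridine nucleotide and the labelled RNA is captured, was made in 6 groups of 3 repeats. These were cells labelled hNABP2 KO, hNABP1 KO and WT with nucleotides (with NTP), and the same genotypes with no nucleotides added (no NTP), the background of the reaction. Chromatin immunoprecipitation (ChIP-seq) with an hNABP2 antibody was made in WT cells in 2 repeats, and immunoprecipitation of RNA:DNA hybrids (DRIP-seq) in cells labelled hNABP2 KO and in WT cells in 2 repeats each. hNABP2 (hSSB1) and hNABP1 (hSSB2) are single-stranded DNA binding proteins. The sources used here do not say how the knockouts were made or whether each was a single clone.

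Actin filaments are built from the cytoplasmic actins and are pulled by non-muscle myosin II and cross-linked by filamins. Plakins such as plectin tie actin, intermediate filaments and adhesion sites together, and keratins 8 and 18 pair with each other to form the intermediate filaments of simple epithelia. Transcription of actin and of several actin-binding protein genes is known to respond to serum response factor, which binds the CArG box, and its coactivator MRTF, which is held by free actin monomers.

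The promoter windows of 3 of the genes are shown because the ChIP data or that motif bear on them. RefSeq promoter windows (GRCh38.p14, 250 bases before to 50 bases after the annotated start) were matched by symbol for 5 of the 8 genes. ACTG1 is shown because hNABP2 ChIP peaks of both repeats covered its window, MYH9 because a peak of repeat 1 did, and FLNA because it shared the CArG box with ACTG1. Capitals mark GC boxes (GGGCGG, or CCGCCC where the box is on the other strand) and the CArG box, and all 3 windows lie on the minus strand, at chr17:81512750-81513049 for ACTG1, chrX:154374585-154374884 for FLNA and chr22:36387918-36388217 for MYH9.
ACTG1: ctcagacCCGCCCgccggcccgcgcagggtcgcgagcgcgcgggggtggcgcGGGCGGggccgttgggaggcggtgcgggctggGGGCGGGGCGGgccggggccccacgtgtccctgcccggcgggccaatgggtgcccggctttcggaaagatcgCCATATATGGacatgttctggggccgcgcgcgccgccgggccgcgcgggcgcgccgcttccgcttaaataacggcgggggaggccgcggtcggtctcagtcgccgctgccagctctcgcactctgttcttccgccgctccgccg
FLNA: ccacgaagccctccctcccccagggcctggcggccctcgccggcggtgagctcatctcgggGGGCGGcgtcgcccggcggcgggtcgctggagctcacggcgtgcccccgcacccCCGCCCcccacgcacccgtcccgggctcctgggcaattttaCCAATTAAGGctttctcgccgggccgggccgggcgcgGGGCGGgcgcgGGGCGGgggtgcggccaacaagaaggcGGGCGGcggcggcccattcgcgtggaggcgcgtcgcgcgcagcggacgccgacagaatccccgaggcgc
MYH9: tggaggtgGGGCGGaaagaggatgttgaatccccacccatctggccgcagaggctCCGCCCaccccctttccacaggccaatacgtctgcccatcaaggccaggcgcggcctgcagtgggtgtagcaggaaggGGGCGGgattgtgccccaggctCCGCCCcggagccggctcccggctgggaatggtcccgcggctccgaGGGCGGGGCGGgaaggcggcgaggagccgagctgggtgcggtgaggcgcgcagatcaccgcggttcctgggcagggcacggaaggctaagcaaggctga

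ACTG1 and FLNA each held 1 CArG box, and in both windows it began 94 bases before the start. Over 35116 promoter windows of the same length, 1.29% held a CArG box. MYH9, AHNAK and KRT8 held none in theirs. GC boxes were searched on both strands: MYH9 held 6, FLNA 5, ACTG1 4 and AHNAK 4, against 45.0% of all windows with at least 1. In ACTG1 and in MYH9 a pair of adjoining GC boxes shared 1 base. The GC content was 77.3% in the ACTG1 window, 78.3% in FLNA, 70.3% in MYH9 and 50.7% in KRT8, against a median of 58.7% over all windows. A match is a description of the letters of the window.

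Of the whole series, 3 facts touch these genes. The run-on libraries were shallow, with 6695 to 19581 counts in repeat 1, 5272 to 8397 in repeat 2 and 19247 to 164357 in repeat 3, so that a gene at 0 in a repeat 2 library could still lie at up to 357 to 569 CPM (counts scaled to a common library total), the level of 3 counts. The targeted genes did not check the labels: NABP2 had 4, 3 and 15 counts in repeats 1 to 3 labelled hNABP2 KO with NTP, against 4, 0 and 8 in WT with NTP, and NABP1 had 0, 1 and 18 counts in those labelled hNABP1 KO, against 1, 0 and 19 in WT. Genotypes are therefore given as labels throughout. In sense and antisense gene pairs the antisense partner took 66.1% of the pair's counts at the median in repeats 1 and 2 (324 pairs) and 30.9% in repeat 3 (863 pairs), and the sources used here do not give the strand setting of the counting. VIM, the mesenchymal intermediate filament gene, had 214 counts and its antisense gene VIM-AS1 6064.

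The mesenchymal description of the cells was compared with marker genes. The 10 mesenchymal markers summed to 3391 counts over the 18 run-on libraries, of which COL5A1, a fibrillar collagen gene, held 2806. VIM had 214, FN1 144, SPARC 69, and CDH2 and TWIST1 40 each. COL1A1 had 43, all from repeat 3, while ZEB1 had 18, COL1A2 12 and THY1 5. The 10 epithelial markers, which leave out the keratins described here, summed to 107 counts, with 2 for EPCAM and 15 for CDH1. The 5 leukocyte markers summed to 39 counts and the 5 neural markers to 155. The 7 striated muscle markers summed to 839, of which TTN, the giant sarcomere gene, held 603. MYH1 had 114, MYH2 75, MYH7 25, DES 12, ACTA1 6 and MYOG 4. KRT8, a simple epithelial keratin, had 197 counts, more than all 10 epithelial markers together. Of the 197, 138 came from repeat 1, and the marker counts were not scaled by gene span.

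PLEC, which encodes plectin, had the most run-on counts of the 8 genes, with 664 over the 18 libraries (rank 10 of 26475 genes). It was the highest of the 8 alone in 14 of the 18 libraries and level with KRT8, at 29 counts each, in WT repeat 1 with NTP, while AHNAK was highest in 2 and FLNA in 1. FLNA, filamin A, followed with 337 counts (rank 26), AHNAK, a giant linker protein beneath the membrane, with 292 (rank 44), MYH9, the heavy chain of non-muscle myosin IIA, with 233 (rank 66), KRT8 with 197 (rank 114) and ACTB, beta-actin, with 165 (rank 167). ACTG1, gamma-actin, had 109 counts (rank 492) and KRT18 had 72 (rank 1355). The gene spans differ widely, so levels between genes were compared per kilobase of RefSeq span. By counts per kb over the 18 libraries and 23749 genes with a span, ACTB ranked 218, ACTG1 290, KRT18 753 and FLNA 1142. PLEC ranked 1416, KRT8 3457, AHNAK 4595 and MYH9 5227. Spans run from 2.829 kb for ACTG1 (chromosome 17, 81509971 to 81512799) and 3.454 kb for ACTB (chromosome 7, 5527148 to 5530601) to 106.688 kb for MYH9 (chromosome 22, 36281280 to 36387967) and 113.263 kb for AHNAK (chromosome 11, 62433544 to 62546806). FLNA spans 26.104 kb (chromosome X, 154348531 to 154374634), PLEC 61.593 kb (chromosome 8, 143915153 to 143976745), KRT8 52.67 kb (chromosome 12, 52897191 to 52949860) and KRT18 4.052 kb (chromosome 12, 52948855 to 52952906). The KRT8 and KRT18 spans overlap, so that counts there can belong to either gene. The KRT8 span also extends upstream of its promoter window (chr12:52926420-52926719), so its level per kb depends on the span used. The sources used here do not say whether exons or whole spans were counted. Ranks per kb of genes with long introns would differ if only exons were.

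Per kilobase of RefSeq span in WT cells with NTP, the short genes ACTB, KRT18 and ACTG1 had the highest means. ACTB averaged 87.8 ± 115 CPM per kb, KRT18 79.3 ± 61.9, ACTG1 66.7 ± 19.3, PLEC 54.3 ± 52.9, FLNA 39.9 ± 33.3, KRT8 19.0 ± 23.7, AHNAK 7.42 ± 10.8 and MYH9 6.70 ± 5.53 CPM per kb (SD, n = 3 each). The library values of each gene overlapped those of the gene before it in this order, so no 2 neighbours were apart beyond their spread. The place of ACTB rested on repeat 1: its values were 217, 0 and 45.8 CPM per kb in repeats 1 to 3, and without repeat 1 it averaged 22.9, below KRT18 at 67.4, PLEC at 61.9 and ACTG1 at 55.9. As a share of all counts the 8 genes differed by repeat: they held 0.777% to 1.79% of the counts in the 6 libraries of repeat 1, 0.252% to 1.07% in repeat 2 and 0.142% to 0.358% in repeat 3. Depth differed between the repeats too, with some overlap. Repeat 1 labelled hNABP2 KO with NTP had 19581 counts and a share of 1.71%. WT repeat 3 with no NTP had 19247 counts and 0.358%, but these 2 libraries also differ in genotype and NTP. The parts of repeat and depth were not tested.

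Anti-hNABP2 ChIP gave a peak within 1 kb of an annotated start at all 8 genes in repeat 1 and at 4 of the 8 in repeat 2. The 4, ACTB, ACTG1, MYH9 and PLEC, had overlapping peaks in both repeats. Of all 26475 genes in the count table, 27.1% had such a peak in repeat 1, 8.74% in repeat 2 and 7.46% in both. Among the 1403 genes with at least the 72 counts of KRT18, the shares were 61.9% in repeat 1, 24.9% in repeat 2 and 22.4% in both. No test of these shares was made, because the genes were chosen with earlier results known. Their symbols were also matched to the annotated peak lists in the choice, so 8 of 8 in repeat 1 is not independent of it. The authors' peak lists hold 10068 peaks in repeat 1 and 2832 in repeat 2, each with a fold, the summit over local background, and a −log10 q. The IgG libraries were not used here.

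The highest-ranked of these peaks by q lay at the actin and filamin genes. FLNA had a peak of fold 10.7 and −log10 q 111 in repeat 1 (chrX:154370637-154371679), rank 80 of 10055 annotated peaks, with its summit 19 bases from the start of a shorter transcript and none in repeat 2. It lay 2906 bases from the promoter window printed above. ACTG1 had a peak of fold 6.16 and −log10 q 71.8 in repeat 1 (chr17:81512035-81513470) and of fold 6.49 and −log10 q 5.85 in repeat 2, with the whole printed window inside both. ACTB had a peak of fold 5.39 and −log10 q 60.3 in repeat 1 (chr7:5529447-5530714) and of fold 6.98 and −log10 q 5.85 in repeat 2. In repeat 1 these 3 peaks ranked 80, 199 and 309 by q.

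MYH9 ranked lower in repeat 1, with fold 3.38 and −log10 q 24.1 (chr22:36387465-36388413), but had the highest fold of the 4 genes in repeat 2, at 10.4 with −log10 q 11.2. Its 2 peaks overlapped over 443 bases and their summits lay 294 bases apart. AHNAK had its best promoter peak at fold 3.29 and −log10 q 18.4, KRT8 at 5.62 and 20.6, and KRT18 at 3.76 and 12.9, all in repeat 1 and with none in repeat 2. The KRT8 peak lay at an internal start of the gene, 22665 bases from its RefSeq promoter window. That window (chr12:52926420-52926719) also lies inside the KRT8 span, whose upstream end is at 52949860. The median peak had fold 3.21 and −log10 q 12.1 in repeat 1 and fold 5.87 and −log10 q 4.50 in repeat 2, so the fold and q of the 2 lists are on different footings and were not compared across repeats.

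**Figure D1:**
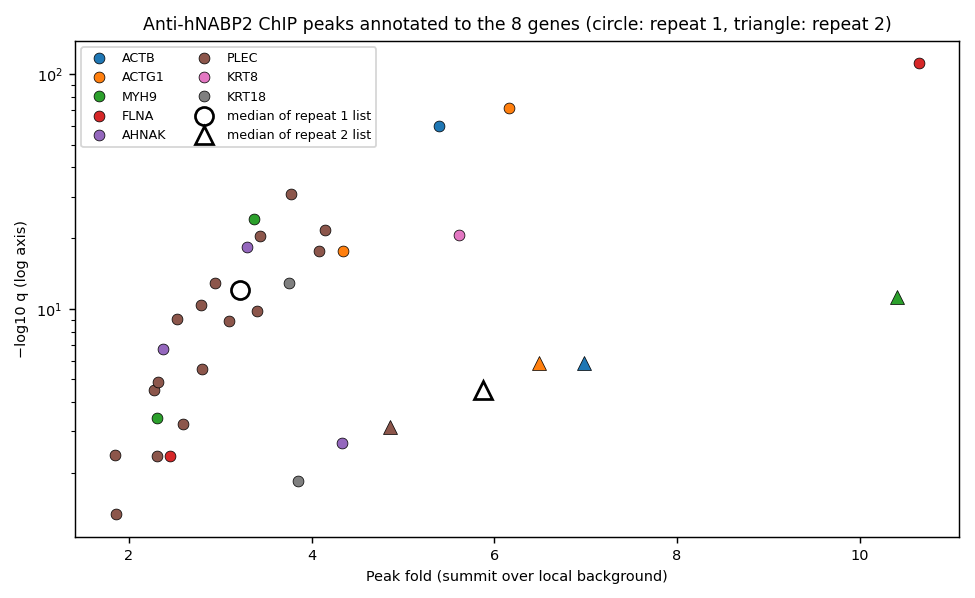
Each point is 1 anti-hNABP2 ChIP peak annotated to one of the 8 genes, by the authors' peak fold (horizontal) and −log10 q (vertical, log axis), with circles for repeat 1, triangles for repeat 2 and open symbols for the median of each list. FLNA (fold 10.7), ACTG1 (6.16) and ACTB (5.39) stand at the top in repeat 1, and MYH9 (fold 10.4) has the highest fold of the 4 repeat 2 peaks.

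PLEC stood apart by its number of peaks. In repeat 1 it had 16 peaks, the most of any of the 8617 genes with a peak, and the next gene had 7. AHNAK, with a longer span, had 3 and MYH9 had 2. Of the 16, 9 lay within 1 kb of a start, at 7 different starts, 1 lay between 1 and 2 kb of one, and 6 lay in exons. Only 51 of the 10055 annotated peaks of repeat 1 were exonic (0.507%), so PLEC held 6 of those 51. The exon peaks lay 42.6 to 53.9 kb into the gene, in exons 12, 13, 27 and 31 of 32, with folds of 1.86 to 3.40 and −log10 q of 1.34 to 9.77. The promoter peaks within 1 kb had folds of 1.85 to 4.15 and −log10 q of 2.39 to 21.7, and the peak between 1 and 2 kb had fold 3.77 and −log10 q 30.9. The 16 peaks together covered 6873 bases. Repeat 2 held 1 of them, at the most upstream start, with fold 4.86 and −log10 q 3.12. The IgG signal over PLEC was not analysed here, so the part of local coverage in these peaks was not tested.

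**Figure D2:**
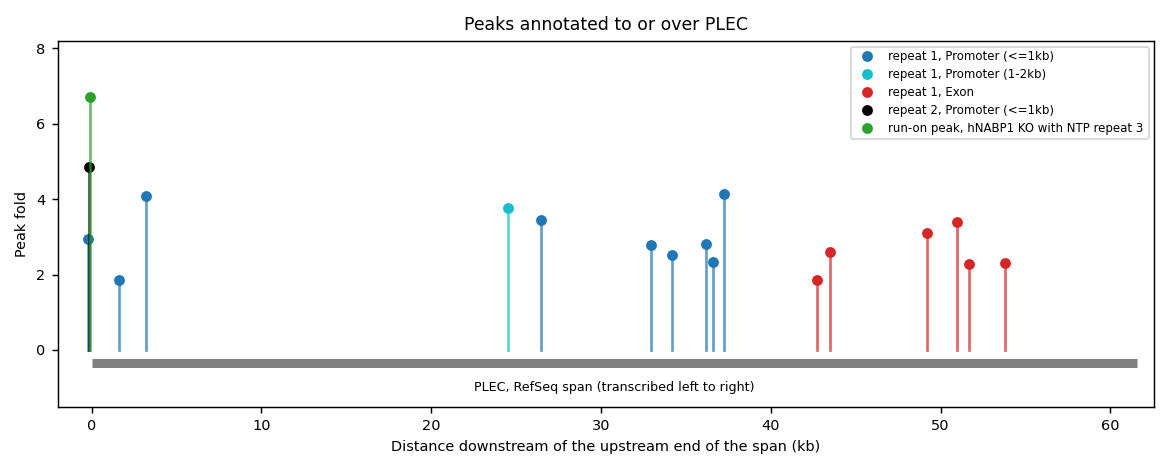
Peaks over PLEC by their distance downstream of the upstream end of its 61.593 kb RefSeq span (horizontal, kb) and the authors' peak fold (vertical), with colour for the annotation and the library. The 16 peaks of ChIP repeat 1 spread from the first start to 53.9 kb, while the single peak of ChIP repeat 2 and the run-on peak of repeat 3 labelled hNABP1 KO lie at the upstream end.

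Peak lists of the other assays touched few of the 8 genes. In the run-on list of repeat 3 labelled hNABP1 KO with NTP, where 26.6% of 23749 genes with a RefSeq span had a peak, ACTB had a peak of fold 11.0 and −log10 q 77.7 (rank 285 of 9965) and PLEC one of fold 6.71 and −log10 q 7.32. Both overlapped the ChIP peaks of both repeats at the upstream end of the gene. In repeat 1 labelled hNABP2 KO with NTP, where 0.564% of genes had a run-on peak, AHNAK had one of fold 1.88 and −log10 q 2.55 inside the gene. The other 7 run-on lists with NTP held no peak over the 8 genes; their shares of all genes with a peak were 1.17% and 0.227% in repeats 2 and 3 labelled hNABP2 KO, 1.61% and 1.5% in repeats 1 and 2 labelled hNABP1 KO, and 0.261%, 0.737% and 0.981% in WT repeats 1 to 3. The DRIP lists held 0 peaks over the 8 genes, where 0.0379% and 0.324% of all genes had one in the 2 repeats labelled hNABP2 KO and 0.358% and 0.307% in the 2 WT repeats, and 0 of 8 is no result at that background.

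The comparisons of genotypes ask whether loss of hNABP2 or hNABP1 changes nascent transcription. No difference of any of the 8 genes passed the test. For the actins, ACTB had 34, 0 and 13 counts in repeats 1 to 3 labelled hNABP2 KO with NTP, 12, 0 and 31 in those labelled hNABP1 KO, and 9, 0 and 26 in WT. It was at 0 in repeat 2 of all 3 genotypes and the groups overlapped. ACTG1 had 10, 1 and 15 counts in the hNABP2 KO repeats, 6, 0 and 16 in those labelled hNABP1 KO and 3, 1 and 24 in WT, again overlapping. In CPM, ACTB averaged 616 ± 972 in libraries labelled hNABP2 KO, 450 ± 563 in those labelled hNABP1 KO and 303 ± 396 in WT (SD, n = 3 each). Neither actin gene reached the abundance filter of the test over 129 genes. With every gene of 10 or more counts kept (13447 genes), ACTB had a log2 fold change of 1.26 (SE 1.23) for hNABP2 KO against WT and 0.76 (SE 1.23) for hNABP1 KO against WT, and ACTG1 had 0.66 (SE 1.26) and 0.48 (SE 1.27).

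For the actin motor and cross-linker, MYH9 had 24, 2 and 26 counts in repeats 1 to 3 labelled hNABP2 KO with NTP, 18, 2 and 31 in those labelled hNABP1 KO and 7, 8 and 33 in WT. The WT library was the lowest of repeat 1 and the highest of repeat 2. FLNA had 53, 2 and 29 counts in the hNABP2 KO repeats, 16, 4 and 57 in those labelled hNABP1 KO and 23, 6 and 30 in WT, with a different genotype highest in each repeat. The log2 fold changes of MYH9 by edgeR were 0.02 for hNABP2 KO against WT (SE 0.915, adjusted p = 0.990) and 0.42 for hNABP1 KO against WT (SE 0.918, adjusted p = 1.00). FLNA lay at 0.30 (SE 1.03) and 0.47 (SE 1.03), with the same adjusted p-values.

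For the linkers, AHNAK had 135, 1 and 21 counts in repeats 1 to 3 labelled hNABP2 KO with NTP, 26, 0 and 7 in those labelled hNABP1 KO and 27, 1 and 16 in WT. The 135 counts of repeat 1 were 40.3% of all counts of the 8 genes in that library, and the other libraries labelled hNABP2 KO, with 152 and 181 CPM in repeats 2 and 3, lay within the WT range of 97.3 to 2254 CPM. AHNAK averaged 2409 ± 3884 CPM in libraries labelled hNABP2 KO, 802 ± 1336 in those labelled hNABP1 KO and 840 ± 1224 in WT (SD, n = 3 each). Its log2 fold change was 1.57 (SE 1.57, adjusted p = 0.990 by edgeR) for hNABP2 KO against WT, and -1.20 without repeat 1 labelled hNABP2 KO. For hNABP1 KO against WT it was -0.17 (SE 1.58).

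PLEC had 44, 9 and 76 counts in repeats 1 to 3 labelled hNABP2 KO with NTP, 16, 9 and 53 in those labelled hNABP1 KO and 29, 41 and 107 in WT. In CPM it averaged 1423 ± 797 in libraries labelled hNABP2 KO, 1031 ± 511 in those labelled hNABP1 KO and 3347 ± 3259 in WT (SD, n = 3 each), and most of the difference lay in WT repeat 2. Libraries labelled hNABP1 KO lay below WT in CPM in 3 of 3 repeats and those labelled hNABP2 KO in 2 of 3, but the groups overlapped. The log2 fold changes were -0.68 (SE 0.749, adjusted p = 0.990 by edgeR) for hNABP2 KO and -1.02 (SE 0.757, adjusted p = 1.00) for hNABP1 KO against WT. Without repeat 2 labelled hNABP2 KO the first was -0.16, and without repeat 3 labelled hNABP1 KO the second was -1.73.

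For the keratins, KRT8 had 32, 3 and 9 counts in repeats 1 to 3 labelled hNABP2 KO with NTP, 23, 2 and 8 in those labelled hNABP1 KO and 29, 3 and 11 in WT. In each repeat the 3 genotypes lay close together, and the repeats lay apart. Its log2 fold changes against WT were -0.31 (SE 1.12) for hNABP2 KO and -0.27 (SE 1.13) for hNABP1 KO, and neither passed (adjusted p = 0.990 and 1.00 by edgeR). KRT18, its filament partner, had 3, 3 and 8 counts in the hNABP2 KO repeats, 4, 2 and 7 in those labelled hNABP1 KO and 5, 3 and 6 in WT. It was tested only with every gene of 10 or more counts kept, and lay at -0.29 (SE 1.33) and -0.09 (SE 1.35).

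**Figure D3:**
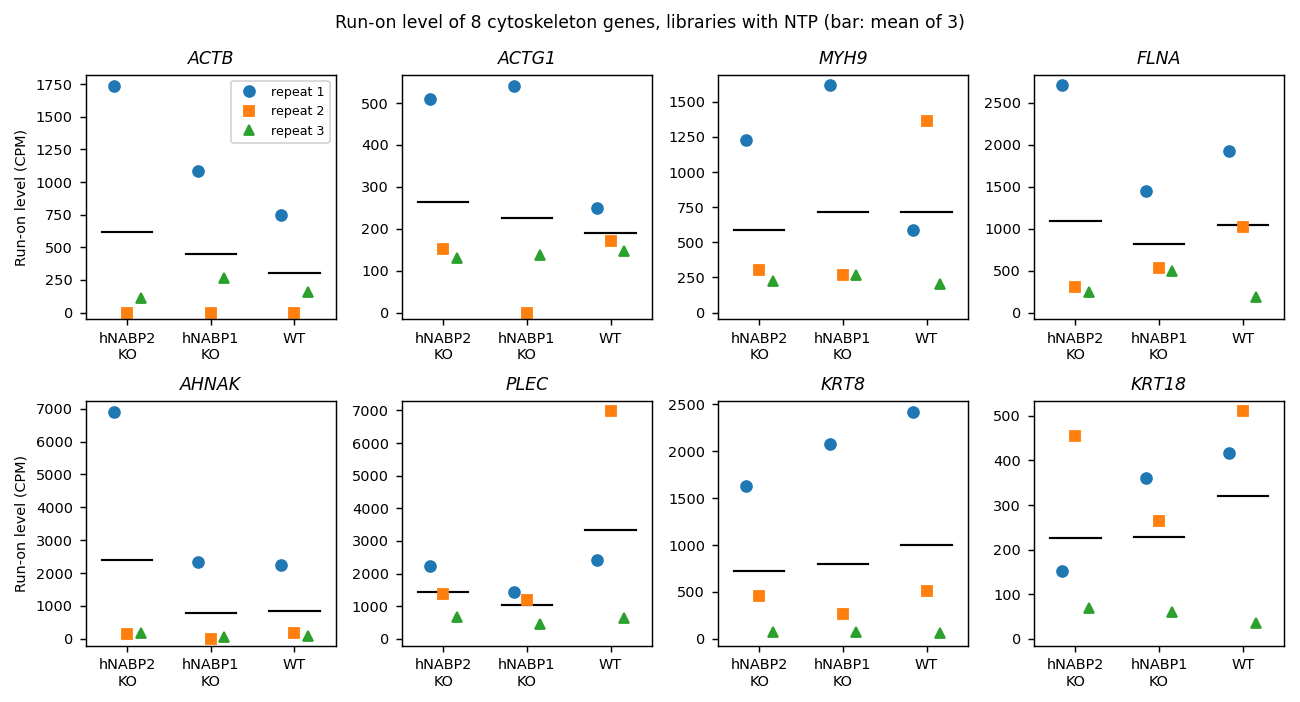
Run-on level of each gene in CPM of the library total (vertical, a separate linear scale per gene) in libraries with NTP labelled hNABP2 KO, hNABP1 KO and WT, with a symbol for each repeat and a bar for the mean of 3. Repeat 1 (circles) and repeat 3 (triangles) lie apart within most groups, AHNAK is high in 1 library labelled hNABP2 KO and PLEC in WT repeat 2.

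Of the 129 genes that passed the abundance filter, 5 were among the 8 described here, and edgeR called 0 of 129 genes (background 0%) in each of the 3 genotype comparisons at an adjusted p of 0.05. At an unadjusted p under 0.05 there were 0 genes for hNABP2 KO against WT, 1 for hNABP1 KO against WT and 0 between the knockouts, and DESeq2 and limma voom called 0. With genes of 10 or more counts kept, all 8 genes were tested and 0 of 13447 genes were called in each comparison, with 41, 163 and 248 at an unadjusted p under 0.05. With the repeat number as a block as well, 16 genes were called for hNABP1 KO against WT and 19 between the knockouts, none of the 8 among them (0.119% and 0.141% of the genes tested). In CPM, the groups overlapped for all 5 in each comparison, and did not for 0%, 0% and 1.55% of the 129 genes for hNABP2 KO against WT, hNABP1 KO against WT and hNABP2 KO against hNABP1 KO. Between the knockouts, hNABP2 KO against hNABP1 KO, the log2 fold change was 1.74 (SE 1.59) for AHNAK, 0.34 (SE 0.752) for PLEC, -0.04 (SE 1.13) for KRT8, -0.18 (SE 1.02) for FLNA and -0.39 (SE 0.913) for MYH9 (adjusted p = 0.997 by edgeR for each). The 2 comparisons with WT share the WT libraries. A fold change here is relative to the genes tested and not to the library total. The TMM scaling factor of repeat 3 labelled hNABP1 KO was 0.336, and those of the other libraries ran from 0.842 to 1.53. The SE of these fold changes ran from 0.749 to 1.59 on the log2 scale, and from 0.418 to 0.509 with the repeat number as a block. With that block, the lowest adjusted p by edgeR over the 129 genes was 0.842 for hNABP2 KO against WT. It was 0.414 for hNABP1 KO against WT and 0.173 between the knockouts. AHNAK held the first and the last of these values and PLEC the second, and none passed.

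**Figure D4:**
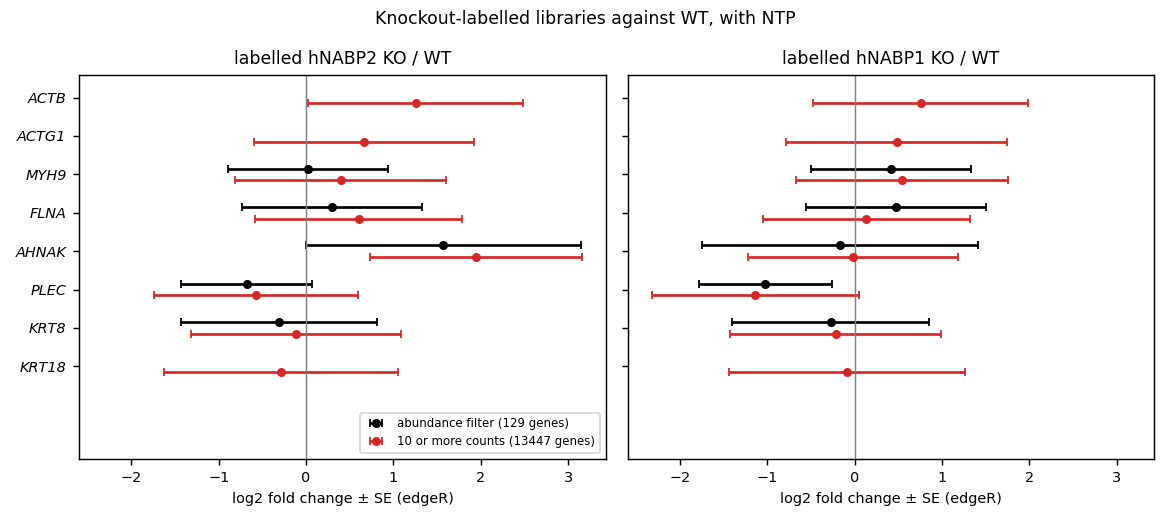
Log2 fold change ± SE by edgeR (horizontal) of each gene in libraries labelled hNABP2 KO (left) and hNABP1 KO (right) against WT, all with NTP, after the abundance filter (black, 129 genes) and with every gene of 10 or more counts (red, 13447 genes). In black, AHNAK is at 1.57 and PLEC at -0.68 for hNABP2 KO and PLEC at -1.02 for hNABP1 KO, and none of the genes passed the test.

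Reactions without NTP serve as the blank of the assay, and the 8 genes had counts there too. In cells labelled hNABP2 KO they held 1.71%, 0.319% and 0.170% of the counts in repeats 1 to 3 with NTP, against 1.19%, 0.536% and 0.191% without it. In those labelled hNABP1 KO they held 1.09%, 0.252% and 0.182% with NTP, against 0.777%, 0.533% and 0.142% without it, and in WT cells 1.10%, 1.07% and 0.154% with NTP, against 1.79%, 0.778% and 0.358% without it. The direction differed between repeats in each genotype. For AHNAK, the 3 repeats labelled hNABP2 KO held 135, 1 and 21 counts in the reactions with NTP, against 11, 1 and 8 in those without. In those labelled hNABP1 KO it had 26, 0 and 7 with NTP, against 1, 1 and 1 without, and in WT 27, 1 and 16 with NTP, against 32, 1 and 2 without. The log2 change with NTP was 2.81 (SE 1.57, adjusted p = 0.998 by edgeR) in cells labelled hNABP2 KO, 3.75 (SE 1.86, adjusted p = 0.982) in those labelled hNABP1 KO and -0.11 (SE 1.49, adjusted p = 0.997) in WT. The difference of the NTP effect from WT was 2.91 (SE 2.14, adjusted p = 0.997 by edgeR) for hNABP2 KO and 3.85 (SE 2.37, adjusted p = 0.999) for hNABP1 KO. Without repeat 1 labelled hNABP2 KO with NTP, the first of these was 0.18, and the change in cells labelled hNABP2 KO was 0.068. Without repeat 1 labelled hNABP1 KO with NTP, the change in cells labelled hNABP1 KO was 1.59 and its difference from WT 1.71, and without WT repeat 1 with no NTP the differences from WT were 0.082 for hNABP2 KO and 1.15 for hNABP1 KO.

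ACTB counts with NTP were 34, 0 and 13, against 5, 0 and 7 without it, in cells labelled hNABP2 KO, 12, 0 and 31 against 4, 1 and 1 in those labelled hNABP1 KO, and 9, 0 and 26 against 17, 0 and 5 in WT. Its log2 change with NTP was 1.80 (SE 1.52), 2.66 (SE 1.65) and -0.28 (SE 1.47) in cells labelled hNABP2 KO, hNABP1 KO and WT. PLEC was lower in CPM with NTP in most pairs of libraries, in 3 of 3 repeats labelled hNABP2 KO, 2 of 3 labelled hNABP1 KO and 2 of 3 of WT. Its log2 changes in the fit were smaller than their SE, at -0.32 (SE 0.748), 0.46 (SE 0.765) and 0.01 (SE 0.749). FLNA lay at 0.33, 1.61 and -0.16, MYH9 at 0.29, 1.71 and -0.33, and KRT8 at 0.18, 1.09 and 0.44 on the log2 scale in cells labelled hNABP2 KO, hNABP1 KO and WT. The TMM scaling factor of repeat 3 labelled hNABP1 KO with NTP was 0.393. Those of the other libraries ran from 0.748 to 1.41. In mean CPM, cells labelled hNABP1 KO had 822 with NTP and 903 without for FLNA, and 1031 and 2032 for PLEC. MYH9 had 719 and 624, and KRT8 803 and 659. With library totals and no such factor, the median of the 211 genes there was -0.17, against 0.12 with it. Of the 211 genes tested, 6 were among the 8, and edgeR called 0 of 211 (background 0%) in each of these comparisons. At an unadjusted p under 0.05 there were 2, 6 and 1 genes in cells labelled hNABP2 KO, hNABP1 KO and WT, and 0 and 1 for the 2 differences from WT, and DESeq2 and limma voom called 0. With the repeat number as a block, edgeR called 5 of the 211 genes (2.37%) in cells labelled hNABP1 KO, among them AHNAK at 3.28 and ACTB at 3.05 (adjusted p = 0.0490 for both). With that block but without repeat 3 labelled hNABP1 KO with no NTP, it called 0 of 250 genes there. In CPM, libraries with and without NTP overlapped for all 6, and did not for 0.474%, 3.32% and 0.948% of the 211 genes.

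**Figure D5:**
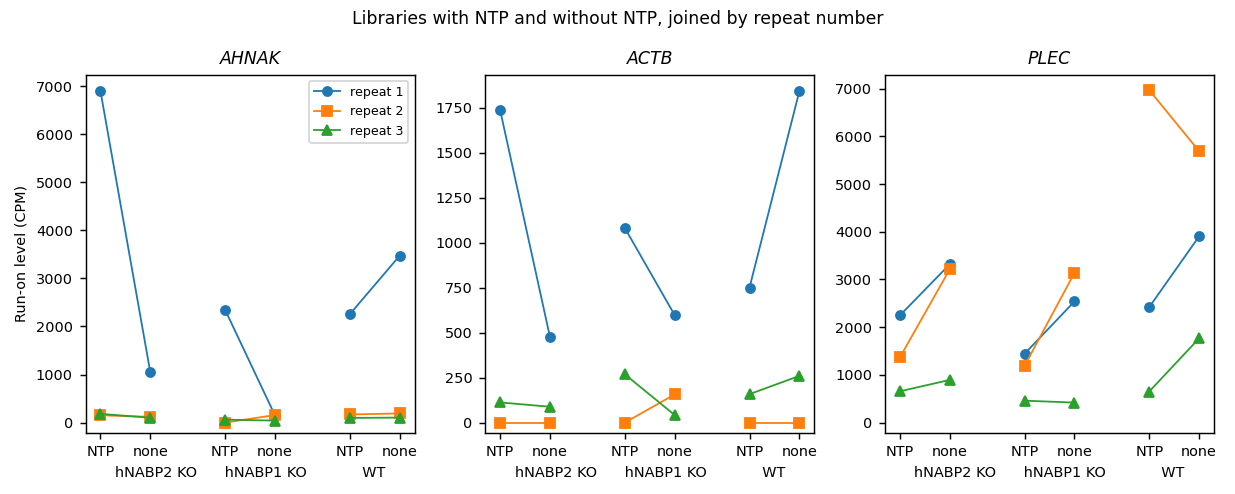
Run-on level in CPM (vertical, a separate linear scale per gene) of AHNAK, ACTB and PLEC with NTP (left of each pair) and without (right), with a line and symbol for each repeat number, in cells labelled hNABP2 KO, hNABP1 KO and WT. AHNAK has 135 counts with NTP and 11 without in repeat 1 labelled hNABP2 KO, and PLEC is higher without NTP in most pairs.

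The other cytoskeleton genes were read from 6 lists of 105 genes in all, none of which passed the abundance filter of the genotype comparisons. With genes of 10 or more counts kept, 100 of the 105 were tested and 0 were called in either direction. Of these 100, 65 lay above 0 for hNABP2 KO against WT, with a median log2 fold change of 0.28 against 0.07 over all 13447 genes, of which 53.8% lay above 0. For hNABP1 KO against WT 65 lay above 0, with a median of 0.29 against -0.03 over all genes, of which 48.8% lay above 0. These values turn on single libraries. Without repeat 1 labelled hNABP2 KO, 49 of 100 lay above 0 for hNABP2 KO against WT (median -0.0052, all genes 0.16), against 58.0% of all genes. Without WT repeat 2, 46 of 100 did in both comparisons, where 38.8% and 37.0% of all genes lay above 0. The list medians were then -0.047 and -0.093, where those of all genes were -0.24 and -0.34. Without WT repeat 3, the medians were 1.03 and 0.99 for hNABP2 KO and hNABP1 KO against WT, where the medians of all genes were 2.02 and 2.22. Without the repeat 3 library of the knockout itself, they were -0.20 and -0.53, where those of all genes were -1.22 and -3.09. The list of 20 actin cross-linkers and membrane or adhesion linkers had 17 above 0 and a median of 0.57 for hNABP2 KO against WT, and 15 above 0 and a median of 0.55 for hNABP1 KO. The 19 microtubule genes had 15 above 0 in both, with medians of 0.51 and 0.57. The 30 actin filament genes had 15 and 18 above 0 (medians -0.01 and 0.25), the 13 non-muscle myosin genes 7 and 7 (0.15 and 0.08), the 6 plakins and spectraplakins 3 and 2 (0.20 and -0.46) and the 12 tested intermediate filament and lamin genes 8 and 8 (0.24 and 0.34). The WT libraries are shared by both comparisons.

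By counts over the 18 libraries, SPTAN1, a spectrin of the membrane skeleton, led the linkers with 174. TPM1, a tropomyosin that coats actin filaments, had 168 counts and PFN1, which binds actin monomers, 82. MYO10, a myosin of filopodia, had 97 and MYLK, the kinase of myosin light chains, 84. The plakin family genes MACF1 and DST had 88 and 82, LMNA, the lamin A gene, had 94, and the tubulin genes TUBB and TUBB4B had 149 and 138. TUBB was the 1 list gene in the NTP comparisons, with log2 changes of -0.10 (SE 1.32) in cells labelled hNABP2 KO, 2.09 (SE 1.48) in those labelled hNABP1 KO and 0.09 (SE 1.37) in WT. TPM1 had 151 of its 168 counts in repeat 3, TUBB had 71 of 149 there and 72 in repeat 1, and MACF1 had 40 of 88 there and 46 in repeat 1, whereas KRT8 had 138 of its 197 and AHNAK 232 of its 292 in repeat 1. These are raw counts and were not scaled for depth. A library of repeat 3 held 19247 to 164357 counts in all, against 6695 to 19581 in repeat 1.

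Among themselves the 8 genes did not follow one pattern. After subtracting the mean of each repeat number, log2 CPM over the 18 libraries was most alike in ACTG1 and AHNAK (r = 0.777) and in MYH9 and FLNA (r = 0.617), and least alike in ACTB and KRT8 (r = -0.722). The 7 genes with 100 or more counts were compared, and the points share libraries and depth, so that these are descriptions. Over 621 genes with 100 or more counts, genes most like MYH9 were THBS1, which encodes the matrix protein thrombospondin 1 (r = 0.844), and PSMD2, a proteasome subunit (r = 0.770). Most like ACTB were NUP98, a nucleoporin (r = 0.873), ACAP2 (r = 0.816) and DNMT1, the maintenance DNA methyltransferase (r = 0.806), and most like FLNA were FASN, the fatty acid synthase (r = 0.813), RNA45S5, the ribosomal RNA precursor (r = 0.789), and NFKB2 (r = 0.753). PLEC was most like RMRP, the RNA of RNase MRP (r = 0.739), EEF2, a translation elongation factor (r = 0.672), and NFKB2 (r = 0.661), and KRT8 most like TMEM80 (r = 0.869), ANAPC11 (r = 0.820) and MFI2-AS1 (r = 0.763). ACTG1 was followed after AHNAK by DNAJB1, a heat shock cochaperone (r = 0.752), and AHNAK after ACTG1 by a gene listed under the altered symbol 6-Mar (r = 0.715) and EIF4B, a translation initiation factor (r = 0.654).

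Near-identical copies can take or lend counts of the actins and keratins. The pseudogenes ACTG1P4 and ACTG1P17 had 5 counts each, KRT8P41 had 9, KRT18P55 had 2 and ACTG1P20 had 0, all from repeat 3. In that repeat ACTG1 had 75 counts, KRT8 44 and KRT18 38. How many of these were gained from or lost to copies was not tested. Among neighbours of the 8 genes, PARP10 had 44 counts, FSCN2 41, EMD 38, MIR661 4 and MIR6819 1.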

How the data were processed

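Run-on counts per gene were deposited by the authors as raw counts for 18 libraries, with no normalization, and a fold (ratio of summit over local background), a −log10 p and a −log10 q value per peak are given in the deposited peak lists, called per library. Reads were handled on hg38 with MACS2 2.2.1, Bowtie2 2.3.5, cutadapt 1.18 and SAMtools, per the submitters' processing notes, which state no settings. The sources used here do not give the counting program, its strand setting or the controls of the peak calling. The genes and lists were chosen with earlier results of these data known, and named genes follow a rule: the 8 genes, the 2 most counted genes of each list, the 3 genes most like each of them, and copies or neighbours; 2 genes that the rule names are not reported here. Counts were compared with edgeR 4.0.16 (R 4.3.3; filterByExpr, TMM, quasi-likelihood test, Benjamini-Hochberg over all genes tested, threshold 0.05), in 9 libraries with NTP for genotypes and in all 18 for NTP. Library sizes in a fit are sums over its tested genes. DESeq2 1.42.0 and limma 3.58.1 were alternatives, as were other scalings, filters, the repeat number as a block and leaving out libraries. Scripts were tested on simulated counts. CPM uses library totals. Intervals and floors cover counting error only, and nothing says that repeats came from separate cultures: the protocol speaks of 2 experiments and 3 repeats are labelled, so p-values measure the spread between libraries, which may be technical. With group means removed, the 9 same-number pairs with NTP correlated at 0.547 to 0.783 and different numbers at -0.578 to -0.079, so the numbers pair those libraries. RefSeq spans and promoters are GRCh38.p14.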

Additional observations from a re-analysis of the deposited data

Results flagged for a closer look

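AHNAK was picked out because its NTP effect had opposite directions in different genotypes. In cells labelled hNABP2 KO it was higher with NTP in 3 of 3 repeats, by a mean of 1988 CPM, and in WT cells it was lower with NTP in 3 of 3 repeats, by a mean difference of -414 CPM. In repeat 2 both libraries of each pair held 1 count, so the sign there comes from the library totals alone. The test of the difference gave 2.91 on the log2 scale (SE 2.14, adjusted p = 0.997 by edgeR), which did not pass, and 0.18 without repeat 1 labelled hNABP2 KO with NTP. Over 10 other alternatives it ran from 1.59 to 3.47 (adjusted p = 0.959 to 1.00).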

How the results depend on the processing

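None of the 8 genes passed in a genotype comparison under any alternative run. In the NTP comparisons AHNAK (log2 change 3.28) and ACTB (3.05) were among 5 genes called in cells labelled hNABP1 KO with the repeat number as a block (adjusted p = 0.0490 by edgeR for both), and with genes of 10 or more counts as well the block called 1 gene, neither of them. Of the 45 same-number pairs of the 18 libraries, 3 correlated under 0.1, all with repeat 3 labelled hNABP1 KO without NTP (range over all pairs 0.0422 to 0.810), so that not every pair met the bar for pairing. With the block but without that library, AHNAK lay at 3.26 (adjusted p = 0.726) and ACTB at 1.74 (adjusted p = 0.947), while 1 gene outside the 8 was called in WT. In the paired genotype fits 16 genes were called for hNABP1 KO against WT and 19 between the knockouts with genes of 10 or more counts, none of the 8, and the block changed no other call. The block and that filter put KRT8 at 0.0071 for hNABP2 KO against WT and 0.049 between the knockouts, and the block alone put MYH9 at -0.063 for hNABP2 KO against WT. limma voom put MYH9 at -0.30 and FLNA at -0.32 for hNABP2 KO against WT, MYH9 at -0.23 for hNABP1 KO against WT and KRT8 at 0.77 between the knockouts. Library totals without TMM, which move the median of all genes to 0.25, -0.19 and 0.45 in the 3 genotype comparisons, put MYH9 at -0.32 and FLNA at -0.34 for hNABP1 KO against WT, and KRT8 at 0.20, MYH9 at 0.33 and FLNA at 0.69 between the knockouts. Between the knockouts KRT8 lay at 0.10 and FLNA at 0.47 with genes of 10 or more counts, and at 0.21 and 0.52 with no filter. Without all libraries of repeat 3, AHNAK lay at 0.0073 and FLNA at -0.52 for hNABP1 KO against WT, and FLNA at 0.89 between the knockouts. With genes of 10 or more counts the median of all genes was 1.70 for NTP in cells labelled hNABP1 KO and 0.93 in WT, against 0.12 and -0.00465 after the abundance filter.

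Leaving out 1 library at a time, edgeR called 0 genes throughout, and log2 fold changes changed sign for the other 4 of the 5 tested genes but not for PLEC against WT. Each range below pools fits after the abundance filter and fits with genes of 10 or more counts. In the latter the median of all genes moved too. Without WT repeat 3 it was 2.02 and 2.22 for hNABP2 KO and hNABP1 KO against WT. Without the repeat 3 library of the knockout itself it was -1.22 and -3.09, so the ranges hold that shift as well. For hNABP2 KO against WT they ran from -1.80 to 4.33 for AHNAK, -2.22 to 1.97 for KRT8, -0.83 to 0.67 for MYH9, -1.43 to 1.49 for FLNA and -1.27 to -0.16 for PLEC. For hNABP1 KO against WT they ran from -3.21 to 2.38 for AHNAK, -2.49 to 1.88 for KRT8, -0.50 to 0.97 for MYH9, -0.48 to 1.02 for FLNA and -1.73 to -0.69 for PLEC. Between the knockouts they ran from -1.68 to 5.01 for AHNAK, -1.90 to 2.23 for KRT8, -1.30 to 0.73 for MYH9, -1.51 to 0.99 for FLNA and -0.077 to 1.00 for PLEC. The NTP change of AHNAK ran from -0.66 to 4.33 in cells labelled hNABP2 KO and from 0.017 to 4.33 in those labelled hNABP1 KO, and that of KRT8 from -1.87 to 2.71 in WT. The difference of the NTP effect in hNABP2 KO from WT ran from -0.20 to 5.73 for AHNAK, and that in hNABP1 KO from 0.49 to 5.63. The cause of these changes was not tested. The count of 4 genes with an hNABP2 promoter peak in both repeats stayed at 4 within 3 kb of a start and with 50% overlap, was 3 at a −log10 q of 5 or more, and was 8 with repeat 1 alone and 4 with repeat 2 alone. At the lowest depth, that of repeat 2, a gene at 0 could lie at up to 357 to 569 CPM.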
